A study of Mus musculus with 16 samples.

Results

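Trem2 and the signalling proteins next to it in microglia were followed across cuprizone (CPZ) feeding and return to regular diet in mouse corpus callosum. The 5 genes, taken by name, were Trem2, Tyrobp, Syk, Plcg2 and Inpp5d. All probes naming one of them were used, which gave 6 of the 41153 probes found both on the array and in the processed table and 5 genes of 18737 named ones, with 2 probes for Trem2 and 1 for each partner. All 6 probes were well above background on all 16 arrays, passed the filter on dim probes and were never saturated.

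RNA was taken from corpus callosum dissected as bulk tissue from wild-type male C57BL/6 mice aged 7 to 8 weeks at the start, and each sample was hybridised to 1 single-colour oligonucleotide array. The groups were untreated controls matched for age and sex to the mice fed for 4 weeks (3 arrays), CPZ in chow for 2 weeks (3 arrays), CPZ for 4 weeks (4 arrays), and CPZ for 4 weeks followed by regular diet (6 arrays). The CPZ share of the chow was 0.2% in the methods and between 0.2 and 0.4% in the labels, and regular diet lasted 2 or 14 days, with 3 samples given for each in the methods and legends, which the labels do not tell apart. No allele was altered in any group, and the age match of the controls is stated for the 4-week group alone.

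Trem2 is a surface receptor of microglia and other myeloid cells that binds lipids, lipoproteins and cell debris, and it has almost no signalling tail of its own. It pairs in the membrane with Tyrobp (DAP12), an adaptor whose ITAM motif, once phosphorylated by Src-family kinases, recruits the kinase Syk. Syk in turn activates phospholipase C gamma 2, the product of Plcg2, while the lipid phosphatase SHIP1, the product of Inpp5d, removes the membrane phosphoinositide that the pathway builds and so restrains it. CPZ is a copper chelator that kills oligodendrocytes and leaves myelin debris, which microglia take up, and myelin is rebuilt once the drug is withdrawn.

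Since all 5 genes are used by microglia, the RefSeq sequence before the start site (GRCm38.p6) is shown for the receptor, the phospholipase and the phosphatase, to compare their proximal letters, each as the 250 bases that end at the base before the start, in the direction of transcription. Capitals mark the purine-rich letters GAGGAA, the core recognised by the myeloid Ets factor PU.1, or their reverse complement TTCCTC, the only motif searched, on both strands.
Trem2, chr17:48346151-48346400, plus strand: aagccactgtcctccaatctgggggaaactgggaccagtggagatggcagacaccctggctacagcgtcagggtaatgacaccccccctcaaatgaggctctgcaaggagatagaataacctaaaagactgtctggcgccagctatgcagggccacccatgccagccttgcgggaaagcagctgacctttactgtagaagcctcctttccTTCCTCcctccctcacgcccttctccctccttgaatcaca
Plcg2, chr8:117498025-117498274, plus strand: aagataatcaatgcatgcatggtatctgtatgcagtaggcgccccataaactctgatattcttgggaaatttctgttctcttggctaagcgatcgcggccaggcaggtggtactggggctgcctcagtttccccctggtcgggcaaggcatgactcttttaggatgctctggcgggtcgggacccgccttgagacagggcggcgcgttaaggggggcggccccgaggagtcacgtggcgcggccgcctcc
Inpp5d, chr1:87620062-87620311, plus strand: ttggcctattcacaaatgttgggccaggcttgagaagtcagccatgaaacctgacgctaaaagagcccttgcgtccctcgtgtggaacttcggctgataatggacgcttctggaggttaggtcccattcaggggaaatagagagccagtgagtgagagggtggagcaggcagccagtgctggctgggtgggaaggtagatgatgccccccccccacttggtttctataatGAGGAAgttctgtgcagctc
The receptor's window held 1 match, on the minus strand 40 bases before the start, that of Inpp5d held 1 on the plus strand 20 bases before it, and that of Plcg2 held none. The window of Inpp5d also read on to the longer form GAGGAAGT. Of the start sites given for Syk, the window at chr13:52583187-52583436 held no match and the one at chr13:52596632-52596881 held 1, 9 bases before the start. Over all 32851 windows of this length, 23.25% held the 6 letters on at least 1 strand and 2.441% held the 8 letters, so matches in this set are a description of these letters and nothing more. Tyrobp is named only.

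Values are log2 signals scaled to each array's 75th percentile and set, probe by probe, relative to the median of the untreated arrays, so 0 is the untreated median of that probe and 1 is a doubling. Between 57.3 and 72.2% of probes on an array were well above background. A difference was called when limma's adjusted p was under 0.05 and the change was at least 2-fold. The methods give 3 to 6 mice for each condition and the labels number the arrays as separate samples without saying that each holds 1 mouse, so p-values measure the spread between these arrays. On regular diet that spread also holds any difference between 2 and 14 days, and so does the spread pooled over all 16 arrays. The 9 oligodendrocyte markers on the array, which define this white-matter tissue, were all well above background on every untreated array, and 7 of the 9 on every 2-week array. Of the 6 regular-diet arrays, those numbered 1 and 2 stood apart in every one of the 5 genes, and the fold changes of the 5 genes and the list medians that use them are also given without them, an alternative chosen after their values were seen. For 14 of 16 arrays the scanner file is recorded under another sample than the processed column it matches, and the processed columns, which carry the sample names, were followed.

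Trem2, the receptor, stood at 1.00, 0.00 and -0.05 in the untreated arrays. After 2 weeks of CPZ it stood at 2.23, 1.03 and 2.22, and after 4 weeks at 3.26, 1.58, 3.37 and 2.65. All 2-week and all 4-week arrays lay above all untreated ones, with replicate 2 the lowest at each time. On regular diet the lowest of the 6 values was 1.91, the median 2.52 and the highest 5.64, and no array came down to the untreated range. Arrays 1 and 2 held 5.15 and 5.64, and the other 4 lay between 1.91 and 2.58, inside the range of the 4-week arrays. The log2 fold change against untreated was 1.51 at 2 weeks (2.85-fold, SE 0.53, adjusted p = 0.345, limma), 2.40 at 4 weeks (5.27-fold, SE 0.50, adjusted p = 0.0961) and 2.98 on regular diet (7.87-fold, SE 0.78, adjusted p = 0.115). These 3 differences were not called, although their unadjusted 95% intervals of 0.30 to 2.71, 1.27 to 3.52 and 1.30 to 4.65 lay above 0. At 4 weeks the call depended on which array was left out. Without the low replicate 2 the log2 fold change was 2.77 with an adjusted p of 0.0355, in a fit that called 0.899% of all genes. That was the lowest adjusted p of 10 fits that each left out 1 array, and the highest was 0.413. The other Trem2 probe ran beside the first, with log2 fold changes of 1.42, 2.17 and 2.99 in the same order, and 1 of its 3 values at 2 weeks lay below the highest untreated value.

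Tyrobp, the adaptor that carries the signal of Trem2 and of several related receptors, stood at 1.03, 0.00 and -0.07 in the untreated arrays. Its values were 2.90, 1.45 and 2.10 after 2 weeks and 2.96, 1.90, 3.40 and 2.71 after 4 weeks. As for the receptor, replicate 1 was the highest untreated array, replicate 2 was the lowest fed array at each time, and the groups did not overlap with the untreated one. On regular diet it ranged from 1.89 through a median of 2.81 to 5.91, with arrays 1 and 2 at 5.60 and 5.91 and the other 4 between 1.89 and 3.07. The log2 fold change against untreated was 1.83 at 2 weeks (SE 0.49, adjusted p = 0.171), 2.42 at 4 weeks (5.36-fold, SE 0.46, adjusted p = 0.0815) and 3.25 on regular diet (9.49-fold, SE 0.80, adjusted p = 0.0849). Tyrobp was the 1 gene of the 5 called on regular diet once arrays 1 and 2 were left out (138 of 14188 genes, or 0.973%, were then called), where it rose by 2.15 (SE 0.43, adjusted p = 0.0472) while Trem2 stood at 1.93 (SE 0.45, adjusted p = 0.0928). Without 4-week replicate 2 its 4-week log2 fold change was 2.70 with an adjusted p of 0.0438. That was the lowest adjusted p of 10 fits that each left out 1 array, and the highest was 0.375.

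Syk, the kinase that docks on the phosphorylated adaptor, varied least between the untreated arrays, at 0.00, -0.12 and 0.03. It stood at 0.39, -0.06 and 0.48 after 2 weeks and at 0.28, 0.14, 0.80 and 0.66 after 4 weeks. The 4-week arrays all lay above the untreated ones by a small margin, and 1 of the 2-week arrays lay among them. On regular diet Syk ranged from 0.47 through a median of 1.12 to 3.24, with 2.88 and 3.24 on arrays 1 and 2 and 0.47 to 1.39 on the other 4. The log2 fold change was 0.30 at 2 weeks (SE 0.23, adjusted p = 0.893), 0.50 at 4 weeks (1.41-fold, SE 0.22, adjusted p = 0.482) and 1.61 on regular diet (SE 0.52, adjusted p = 0.248), or 0.87 without arrays 1 and 2. Its probe was dim, and with another background correction (normexp on the median signal) the log2 fold changes at 2 and 4 weeks were -0.19 and -0.02, so no direction is given for Syk during feeding.

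Plcg2, the phospholipase that turns Syk activity into calcium and diacylglycerol signals, stood at 0.55, 0.00 and -0.18 in the untreated arrays. Its values were 1.16, 0.06 and 1.12 after 2 weeks and 1.49, 0.51, 1.62 and 1.19 after 4 weeks. Replicate 2 of each fed group lay below the highest untreated array and the remaining fed arrays lay above it. On regular diet Plcg2 ranged from 0.98 through a median of 1.24 to 3.81, with 3.51 and 3.81 on arrays 1 and 2 and 0.98 to 1.25 on the other 4. The log2 fold change was 0.66 at 2 weeks (SE 0.39, adjusted p = 0.761), 1.08 at 4 weeks (2.12-fold, SE 0.36, adjusted p = 0.304) and 1.86 on regular diet (3.64-fold, SE 0.61, adjusted p = 0.248). Leaving out 1 array at a time gave 2-week values from 0.47 to 1.02, the highest without the low 2-week replicate 2. Leaving out arrays 1 and 2 moved the regular-diet value to 1.02 as well.

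Inpp5d, which encodes the inhibitory phosphatase SHIP1, stood at 0.33, 0.00 and -0.17 in the untreated arrays. It stood at 0.91, 0.47 and 1.02 after 2 weeks and at 1.31, 0.46, 1.17 and 0.89 after 4 weeks. Neither fed group overlapped with the untreated one, and the ranges of the fed groups lay over each other. On regular diet the values ran from 0.68 through a median of 0.95 to 3.67, with 3.45 and 3.67 on arrays 1 and 2 and 0.68 to 0.99 on the other 4. The log2 fold change was 0.74 at 2 weeks (1.67-fold, SE 0.27, adjusted p = 0.361), 0.90 at 4 weeks (1.87-fold, SE 0.25, adjusted p = 0.194) and 1.71 on regular diet (3.28-fold, SE 0.61, adjusted p = 0.32). The last of these was 0.82 without arrays 1 and 2.

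**Figure D1:**
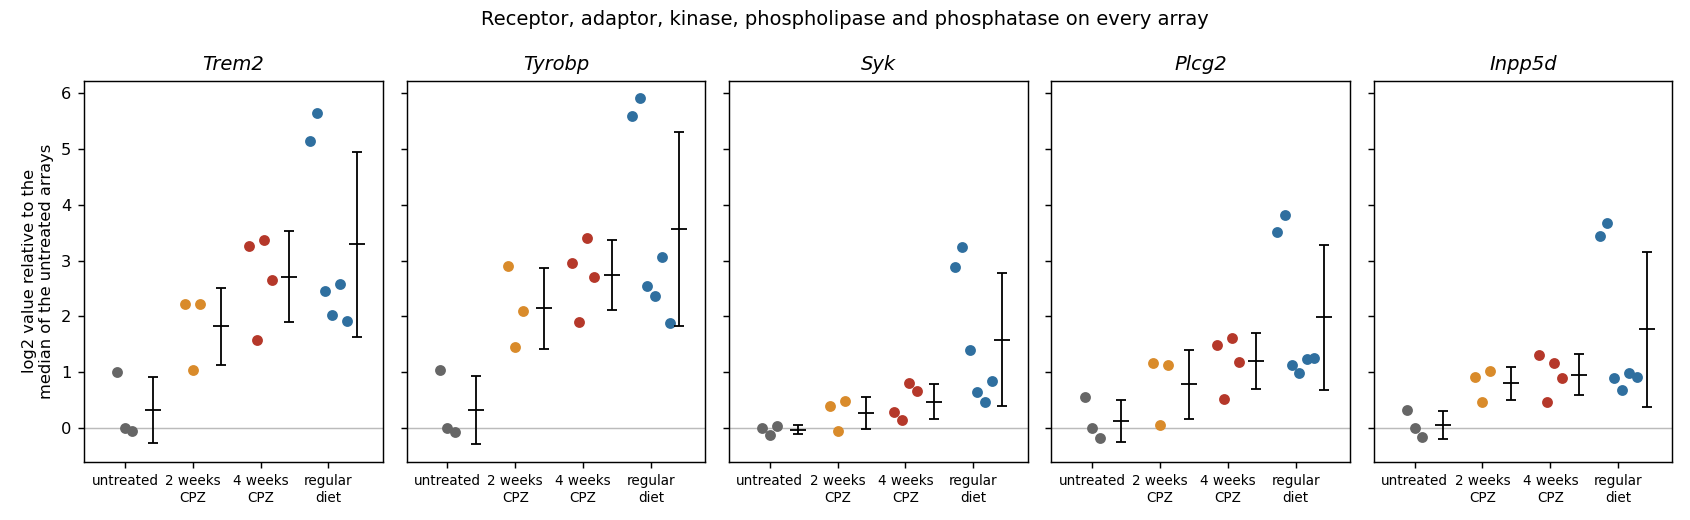
Log2 value relative to the untreated median on each array (vertical axis) for Trem2, Tyrobp, Syk, Plcg2 and Inpp5d in the 4 groups (horizontal axis). Each dot is 1 array and the bar beside each group is its mean ± SD. Regular-diet arrays 1 and 2 lie above the other 4 in every panel.

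Limma called 0 of the 5 genes at 2 weeks against untreated (0.238% of all 13880 genes tested were called), 0 at 4 weeks (0.223%), 0 at 4 against 2 weeks (0.0144%), 0 on regular diet against untreated (1.08% of 13985 genes) and 0 on regular diet against 4 weeks (0%). The methods' test across the 4 groups also called 0 of the 5 in each, but it called at most 7 of 13985 genes (0.0501%, at 2 weeks) in any of them. It differs from the paper's comparison, which kept 2 and 14 days of regular diet apart. The paper lists Trem2 and Tyrobp as up in early remyelination, which the pooled regular-diet group could not test. At an unadjusted p under 0.05, limma passed 3 of the 5 at 2 weeks (all 3 above untreated; 5.24% of all genes passed upward), 5 at 4 weeks (6.28%), 0 at 4 against 2 weeks (5.39%), 5 on regular diet against untreated (7.26%) and 1 on regular diet against 4 weeks (6.58%). The groups did not overlap for 3 of the 5 at 2 weeks, where 8.83% of all genes had every fed array above every untreated one, for 4 of the 5 at 4 weeks (6.56%) and for all 5 on regular diet (5.94%). For 0 of the 5 did every 4-week array lie above every 2-week one (6.54% of all genes), or every regular-diet array above every 4-week one (2.16%). The median log2 fold change over the 5 genes was 0.74, 1.08 and 1.86 in these comparisons, beside -0.02, 0.03 and -0.07 over all genes tested. Without arrays 1 and 2 the regular-diet median was 1.02, below the one at 4 weeks, and that over all genes was -0.06. All 3 comparisons share the same untreated arrays, so their values are given side by side only.

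Between the fed groups and the regular-diet group, no gene of the 5 was called. From 2 to 4 weeks the log2 fold changes were 0.89 for Trem2 (95% interval -0.24 to 2.02), 0.59 for Tyrobp (-0.44 to 1.62), 0.42 for Plcg2 (-0.40 to 1.24), 0.20 for Syk (-0.29 to 0.69) and 0.16 for Inpp5d (-0.41 to 0.73), with limma's adjusted p between 0.496 and 0.812. Without 2-week replicate 2 they stood between -0.0056 and 0.49. From 4 weeks of CPZ to regular diet the log2 fold changes were 0.58 for Trem2 (-0.95 to 2.11), 0.82 for Tyrobp (-0.75 to 2.39), 0.78 for Plcg2 (-0.41 to 1.97), 0.81 for Inpp5d (-0.38 to 2.01) and 1.11 for Syk (0.08 to 2.13, adjusted p = 0.176). Without regular-diet arrays 1 and 2 these became -0.47, -0.27, -0.06, -0.09 and 0.37. A lower level of Trem2 after withdrawal than at 4 weeks was not detectable with these arrays, and the interval does not exclude one.

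**Figure D2:**
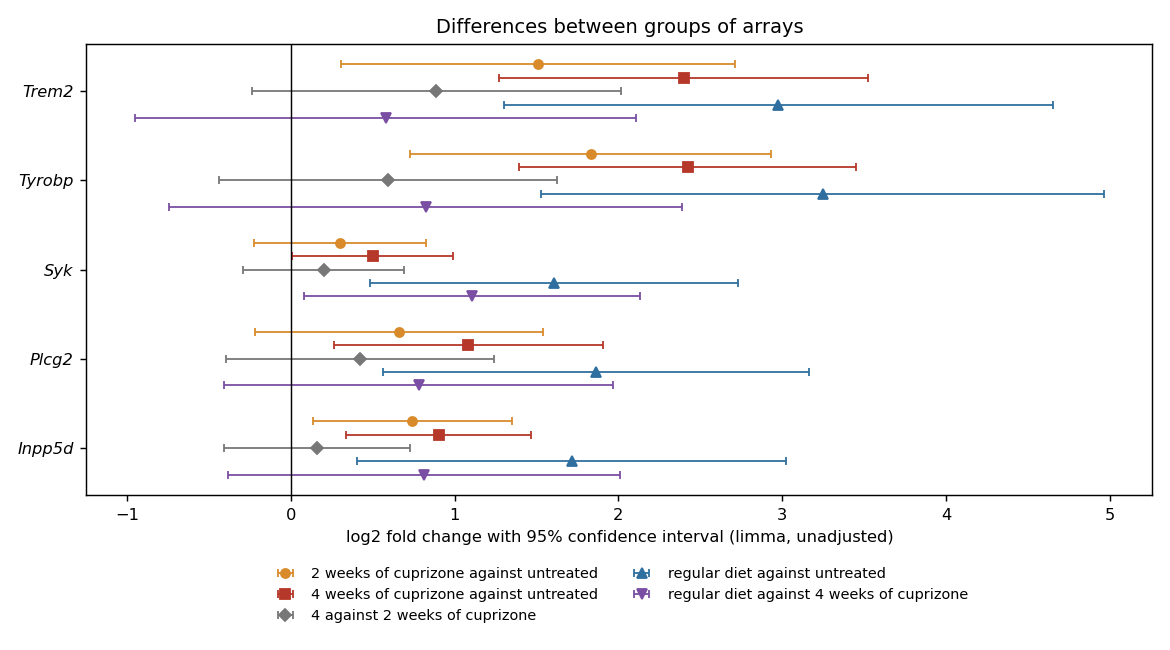
Log2 fold change (horizontal axis) of each of the 5 genes in the 5 comparisons, with limma's unadjusted 95% interval as a line. The intervals of Trem2, Tyrobp and Inpp5d lie above 0 in the 3 comparisons with untreated arrays, and no difference met the call.

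Arrays shared 4 slides that each held several groups, and the values within slides bear on the same comparisons. At 4 weeks the receptor lay 3.37 and 3.31 log2 units above the untreated array of the same slide on the 2 slides that held both, and Tyrobp 3.40 and 3.03. Plcg2 lay 1.62 and 1.68 above, Inpp5d 1.17 and 1.48, and Syk 0.92 and 0.25. Each of these 2 slides set 1 array against 1, and they held the 2 highest 4-week and the 2 lowest untreated values of Trem2. The 4-week arrays at 1.58 and 2.65 and the untreated array at 1.00 had no such partner, so these differences leave them out. The fixed-block fit rests in part on the same pairs. With slide as a fixed block limma called 3 of the 5 at 4 weeks, beside 2.4% of all genes, with Trem2 at 3.08 (adjusted p = 0.0211), Tyrobp at 2.99 (adjusted p = 0.0235) and Plcg2 at 1.58 (adjusted p = 0.0371). At 2 weeks only 1 slide held both groups, where Trem2 differed by 1.22, Tyrobp by 1.47, Inpp5d by 0.63, Plcg2 by 0.60 and Syk by 0.43. On regular diet the slides differed: Trem2 lay 1.02 above untreated on the slide without arrays 1 and 2 and 3.77 and 3.92 on the others. If the scanner files are instead assigned as recorded, Trem2 stood at 0.62, 0.22 and 0.87 and Tyrobp at 0.54, 0.22 and 0.85 at 2 weeks, at 4 weeks and on regular diet, with no gene called.

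The partners were set against the receptor array by array, as the log2 value of the partner minus that of Trem2, which asks whether they moved by the same amount. For Tyrobp this difference stood at 0.03, 0.00 and -0.02 in the untreated arrays, at 0.68, 0.41 and -0.12 after 2 weeks and at -0.30, 0.32, 0.03 and 0.06 after 4 weeks, so the fed arrays lay on either side of the untreated ones. The change from untreated was 0.32 at 2 weeks, 0.03 at 4 weeks and 0.27 on regular diet (exact two-sided permutation p = 0.4, 0.686 and 0.0833). Syk stood at -1.0, -0.12 and 0.08 relative to Trem2 in the untreated arrays and at -2.98, -1.44, -2.56 and -1.99 after 4 weeks, which did not overlap. Its change was -1.21 at 2 weeks, -1.90 at 4 weeks and -1.37 on regular diet (exact permutation p = 0.1, 0.0286 and 0.0238). The Syk probe was dim, at 0.067 to 0.127 of the 75th percentile signal in untreated and 4-week arrays. Trem2 stood at 4.56 to 48.7 on the same arrays. The part of this dimness in the Syk differences was not tested, so they are given without a reading.

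Plcg2 and Inpp5d also lay further below the receptor in fed arrays. Relative to Trem2, Plcg2 stood at -0.46, 0.00 and -0.13 untreated and at -1.76, -1.07, -1.75 and -1.46 after 4 weeks, and its change was -0.85, -1.32 and -1.11 (exact permutation p = 0.1, 0.0286 and 0.0119). Inpp5d stood at -0.67, 0.00 and -0.12 untreated and at -1.95, -1.12, -2.20 and -1.76 after 4 weeks, with changes of -0.77, -1.5 and -1.26 (exact permutation p = 0.2, 0.0286 and 0.0119). The smallest p these group sizes allow is 0.1 at 2 weeks, 0.0286 at 4 weeks and 0.0119 on regular diet. Over the 12 tests the adjusted p was 0.0571 for Syk, Plcg2 and Inpp5d at 4 weeks and on regular diet, so 0 of 12 passed 0.05 after adjustment and 6 of 12 before it. Without regular-diet arrays 1 and 2 the regular-diet changes were -1.06 for Syk, -0.90 for Plcg2 and -1.11 for Inpp5d.

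**Figure D3:**
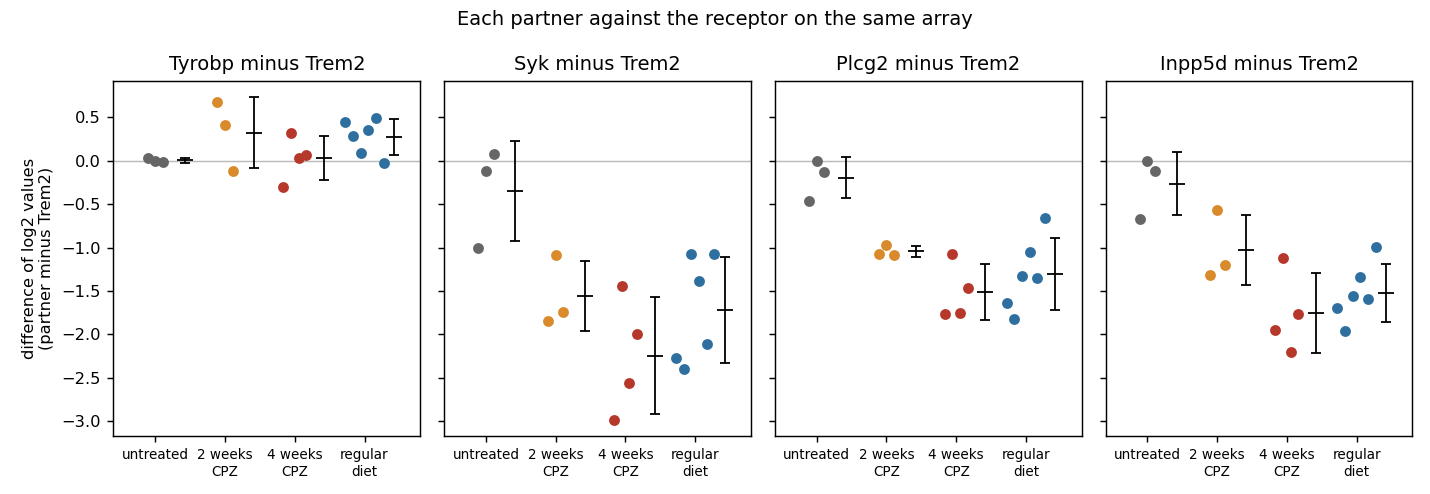
Log2 value of each partner minus that of Trem2 on the same array (vertical axis) in the 4 groups, with each dot 1 array and the bar its group mean ± SD. Tyrobp lies between -0.30 and 0.68, and Syk, Plcg2 and Inpp5d lie lower in the fed and regular-diet arrays than in the untreated ones, except for 1 array of Inpp5d at 2 weeks.

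Among 13984 other genes, those whose values ran most like the receptor's over the 16 arrays were C1qc (Pearson r = 0.997), a subunit of complement C1q, Mpeg1 (0.996), a pore-forming protein of macrophages, Pycard (0.992), the inflammasome adaptor, Fcer1g (0.992), the ITAM adaptor of Fc receptors, and Rac2 (0.992), a small GTPase of blood-lineage cells. Over the 14 arrays left without regular-diet arrays 1 and 2, r for these 5 lay between 0.981 and 0.992. Tyrobp came 15th (0.988), Plcg2 88th (0.971), Inpp5d 179th (0.948) and Syk 458th (0.875). Without the arrays that stood apart, Tyrobp was at rank 27 (0.97), Inpp5d at rank 31 (0.967), Plcg2 at rank 58 (0.955) and Syk at rank 780 (0.657). Among the closest to Tyrobp were Irf8 (0.995), a myeloid transcription factor, Ctsc (0.993) and Ctsh (0.991), lysosomal proteases, and Ptpn6 (0.993), the phosphatase SHP-1. These correlations describe arrays that share a tissue, a scaling and the same group differences.

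The other genes of the pathway were read from 6 lists. The Trem family and Tyrobp list held 12 genes, for Trem family members, receptors that use Tyrobp and the adaptor Hcst. Of these, 5 were tested and 0 were called. Their medians were 0.81, 1.61 and 2.05 at 2 weeks, at 4 weeks and on regular diet (1.28 on regular diet without arrays 1 and 2). At 4 weeks Hcst, the DAP10 adaptor that pairs with Tyrobp, stood at 2.35 (adjusted p = 0.0713), Cd300c2, an activating lipid receptor, at 2.03 (adjusted p = 0.0571) and Clec5a, a Tyrobp-coupled lectin, at 1.61 (adjusted p = 0.108). Of 11 listed ligands and cleavage enzymes of Trem2, 7 were tested, with medians of 0.08, 0.34 and 0.58 (0.26 without arrays 1 and 2). The lipoprotein ligand Apoe stood at 1.21 at 4 weeks (adjusted p = 0.256) and Ncstn, a subunit of gamma-secretase, at 0.83 (adjusted p = 0.447). Ms4a6d, a membrane protein of the family linked to soluble Trem2, was the 1 gene called, on regular diet. Its fitted change was 3.06, and without arrays 1 and 2 it was 2.25 and no longer called. It was well above background on only 1 of 3 untreated arrays, so the size is uncertain and nothing is read from the call.

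The Src and Tec kinases and the adaptors upstream and downstream of Syk gave medians of 0.87, 0.49 and 1.78 over 16 tested genes of 18 (17 on regular diet, where the median was 1.12 without arrays 1 and 2), with 0 called and 13 of 16 above 0 at 4 weeks. Lat2, an adaptor phosphorylated by Syk, stood at 2.06 at 4 weeks (adjusted p = 0.0889) and Vav1, a guanine nucleotide exchange factor, at 1.49 (adjusted p = 0.183). The Src-family kinase Fgr was not well above background on any untreated array. It was at least 2.71-fold higher at 4 weeks and at least 3.96-fold higher on regular diet. By contrast, the PI3K, PLC and Card9 branch had medians of 0.01, -0.01 and 0.05 over 15 tested genes of 16 (-0.08 on regular diet without arrays 1 and 2), with 6 of 15 above 0 at 4 weeks and 0 called. Card9 itself was not among the tested genes. Within it the myeloid catalytic subunits Pik3cg and Pik3cd stood at 1.26 and 0.49 at 4 weeks, and the kinase Mtor at -0.46.

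Inhibitors of ITAM signalling, the group to which Inpp5d belongs by function, had medians of 0.79, 0.67 and 1.56 over 11 tested genes of 13 (12 on regular diet, where the median was 1.05 without arrays 1 and 2). Of the 12, 3 were called on regular diet, beside 1.08% of all genes. Of these 3, 2 passed the filter on dim probes through other groups than the untreated one, so nothing is read from their number. Pirb, an inhibitory receptor for MHC class I that was well above background on all untreated arrays, rose by 2.79 (adjusted p = 0.00491), or by 2.50 without arrays 1 and 2 (adjusted p = 0.0196). The related receptor Lilrb4a was at least 5.51-fold higher and Cd22, a sialic acid receptor, was at least 7.58-fold higher. No p-value is given beside these bounds, because limma tested a fitted change from untreated values near background. Cd22 and Lilrb4a were the 2 genes not well above background on any untreated array. At 4 weeks Ptpn6 stood at 2.11 (adjusted p = 0.0889) and Cd33, a sialic acid receptor of myeloid cells, at 0.94 (adjusted p = 0.147), while Cd22 was at least 4.2-fold higher. The remaining ITAM and microglial receptors, 9 tested of 10, had medians of 1.40, 1.53 and 2.37 (1.46 on regular diet without arrays 1 and 2), and all 9 lay above 0 at 4 weeks. Fcgr4, an activating Fc receptor, had fitted changes of 3.66 on regular diet, 2.74 without arrays 1 and 2, and 2.88 at 4 weeks. It was above background on only 1 of 3 untreated arrays, so the size of these changes is uncertain and no p-value is given. At 4 weeks the inhibitory Fcgr2b stood at 2.43 and Fcgr1 at 2.36.

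No gene of the 6 lists was called at 2 weeks, at 4 weeks, at 4 against 2 weeks, or on regular diet against 4 weeks. At an unadjusted p under 0.05, limma passed 6.28% of all genes upward at 4 weeks. It passed 3 of the 5 genes on the Trem family and Tyrobp list and 3 of the 7 ligands and cleavage genes. It also passed 7 of the 16 kinases and adaptors and 1 of the 15 genes of the PI3K branch. Of the 11 inhibitors it passed 6, and of the 9 other receptors 7, and all these list genes lay above untreated. These counts include genes such as Fgr, Cd22 and Fcgr4 that were not well above background on all untreated arrays, so nothing is read from them. Without arrays 1 and 2 the list genes called on regular diet against untreated were Cd300c2, Hcst, Lat2, Ptpn6, Pirb and Fcgr2b, which were well above background on all untreated arrays, and Lilrb4a, Cd33, Cd22 and Fcgr4, which were not and could pass the filter through other groups. Nothing is read from their number.

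**Figure D4:**
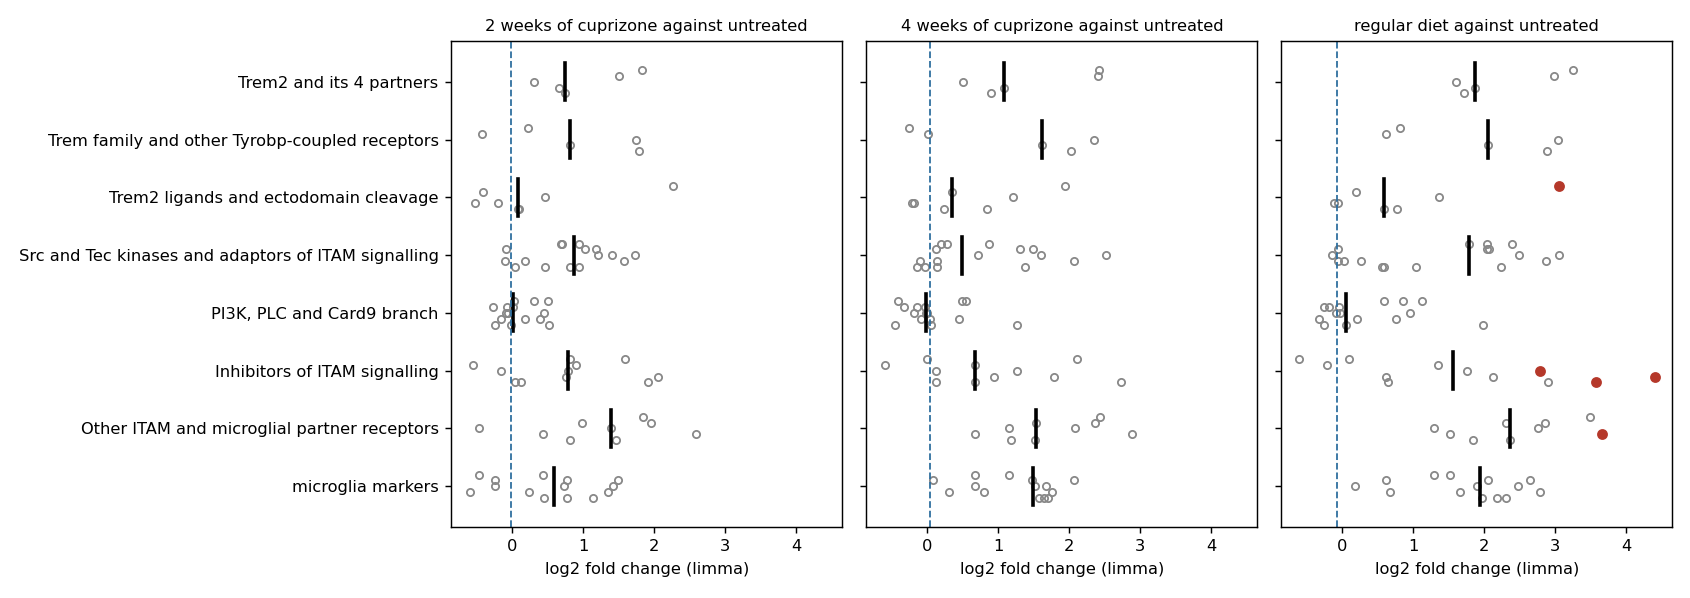
Log2 fold change against untreated (horizontal axis) for each tested gene of the 6 pathway lists and the microglia markers, in 3 panels for 2 weeks, 4 weeks and regular diet. Circles are genes, filled where called, black bars are list medians and the dashed line is the median of all genes. The PI3K, PLC and Card9 branch, in which Card9 itself was not tested, sits near the all-gene median. The medians of the Trem family and Tyrobp list and of the other ITAM receptors lie to the right of it in all 3 panels.

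In bulk tissue, fewer cells of a type and less RNA per cell cannot be told apart, and the same holds for more, so the 5 genes were set beside cell type markers. The 14 microglia markers on the array were well above background on every array, and limma called 0 of them in any comparison, with 4, 10 and 10 of the 14 above untreated at an unadjusted p under 0.05 at 2 weeks, at 4 weeks and on regular diet (5.24, 6.28 and 7.26% of all genes). Their summed level, in units of each array's 75th percentile signal, was 42.8 to 94.2 in untreated arrays, 65.8 to 154 after 2 weeks, 110 to 263 after 4 weeks and 132 to 1009 on regular diet. Their median log2 fold change was 0.58 at 2 weeks (10 of 14 above 0), 1.5 at 4 weeks and 1.93 on regular diet (14 of 14 in both), and 0.84 on regular diet without arrays 1 and 2. Within the list C1qc stood at 2.06 at 4 weeks, while Tmem119 and P2ry12, which mark resting microglia, stood at 0.08 and 0.31. The part of microglial number in the results for the 5 genes was not tested.

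The median log2 value of the 5 genes was set beside that of the microglia markers array by array. In untreated arrays they stood at 0.55, 0.00 and -0.07 beside 0.85, 0.00 and -0.17, after 2 weeks at 1.16, 0.47 and 1.12 beside 1.21, 0.05 and 0.96, and after 4 weeks at 1.49, 0.51, 1.62 and 1.19 beside 1.74, 0.89, 1.73 and 1.67. Regular-diet arrays 1 and 2 had 3.51 and 3.81 beside 3.97 and 4.29, so the microglia markers stood apart on the same arrays as the 5 genes. The other 4 regular-diet arrays had 0.98 to 1.39 beside 0.83 to 1.31. Replicate 2 of the 2-week and of the 4-week group was the lowest array of its group in both measures.

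Oligodendrocyte markers did not follow the same order. Their median stood between -0.68 and 0.39 in untreated arrays, between -4.88 and -1.97 after 2 weeks and between -4.66 and -1.63 after 4 weeks. On regular diet arrays 1, 2 and 3 stood at -3.88, -3.57 and -2.92 and arrays 4, 5 and 6 at -0.12, -0.13 and 0.65, inside the untreated range or above it. Trem2 stood at 2.46 on array 3 and at 1.91 to 2.58 on arrays 4 to 6. Array 3 and arrays 4 to 6 thus had similar values of the receptor beside oligodendrocyte medians more than 2 log2 units apart.

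Markers of the other cells that the dissected tissue could hold were summed in the same way, which weights each sum towards its brightest probes. The summed B cell markers stood at 0.225 to 0.299 in untreated arrays, 0.331 to 0.448 after 2 weeks and 0.371 to 0.732 after 4 weeks, so every fed array lay above every untreated one. On regular diet they stood at 1.59 and 1.88 on arrays 1 and 2 and at 0.406 to 0.596 on the other 4. Ms4a1, Pax5 and Blk were never well above background, and Cd22 is on this list as well as among the inhibitors. Markers of neutrophils, monocytes and platelets stood at 0.432 to 0.815 untreated, 0.515 to 1.86 after 2 weeks and 0.54 to 1.18 after 4 weeks. On regular diet they stood at 1.93 and 2.79 on arrays 1 and 2 and at 0.519 to 1.0 on the other 4, with Elane, Ccr2 and Ppbp never well above background. The sums were highest on the same arrays as the 5 genes, but the medians over each list were not: on arrays 1 and 2 they stood at 1.03 and 0.00 for the B cell markers and at 0.42 and 0.01 for the others, beside untreated maxima of 0.10 and 0.40.

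T and NK cell markers summed to 25.1 to 35.5 untreated, 16.1 to 63.3 after 2 weeks, 24.4 to 44.4 after 4 weeks and 14.6 to 36.4 on regular diet, with Ncr1 never well above background. The T cell genes Cd3d and Cd8a, singled out after their values were seen, were not well above background on any untreated array and have no measured level there. Cd3d was well above background on 2 of 3 arrays after 2 weeks, 3 of 4 after 4 weeks and 4 of 6 on regular diet, and Cd8a on 1 of 3, 0 of 4 and 3 of 6. These genes do not stand for the list. Its 3 tested genes, Cd3e, Klrb1c and Lck, had median log2 fold changes of 0.07, 0.34 and 0.29 against untreated, with 0 called. Of the 3, 2 lay above 0 at 2 weeks, 3 at 4 weeks and 2 on regular diet.

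Choroid plexus markers ranged widely, at 2.29 to 11.9 untreated, 2.15 to 13.2 after 2 weeks, 0.981 to 47.8 after 4 weeks and 1.04 to 35.4 on regular diet. They did not follow the order of Trem2: at 4 weeks the highest sum was on replicate 3 and the lowest on replicate 1, where Trem2 stood at 3.37 and 3.26, and regular-diet arrays 1 and 2 had sums of 1.04 and 2.29. Red blood cell markers stood at 44.3 to 82.2 untreated, 23.6 to 113 after 2 weeks, 37.4 to 144 after 4 weeks and 31.6 to 98.6 on regular diet. Oligodendrocyte precursor markers stood, in the same order of groups, at 24.7 to 52.3, 16.7 to 37.8, 13.4 to 39.7 and 21.8 to 45.6. Astrocyte markers stood at 145 to 237, 117 to 175, 138 to 230 and 135 to 213, and neuron markers at 125 to 186, 72.8 to 203, 123 to 255 and 82 to 167. The part of these cells in the results for the 5 genes was not tested.

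**Figure D5:**
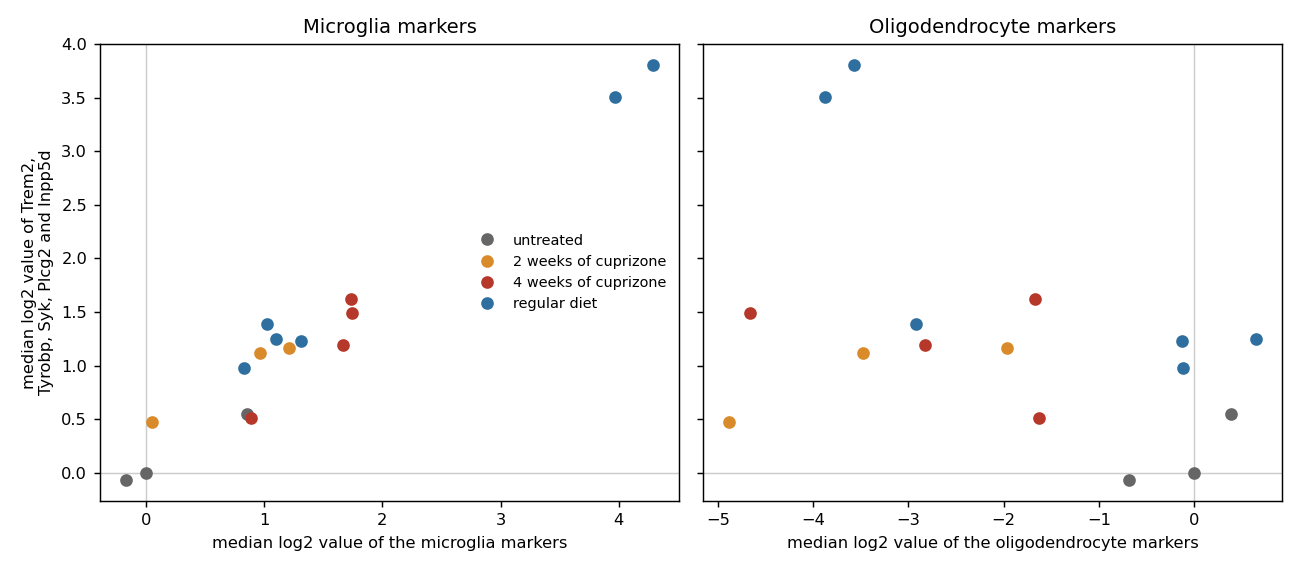
Median log2 value of the 5 genes (vertical axis) against the median log2 value of microglia markers (left) and oligodendrocyte markers (right), with each point 1 array coloured by group. Regular-diet arrays 1 and 2 lie at the top right on the left, and the regular-diet arrays spread widely along the horizontal axis on the right.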

How the data were processed

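Corpus callosum RNA was measured on 16 single-colour Agilent arrays, 1 per sample, with groups taken from the labels. Per the file headers, the deposited scanner files hold intensity per spot, extracted by the authors with Agilent Feature Extraction (11.0.1.1 in the submitters' processing notes) and background-subtracted. The deposited processed table holds log2 values that the authors scaled to the 75th percentile of each array; comparison with the scanner intensity (median absolute difference 0.0012 log2 units) showed that each probe is also centred on the median of the 3 untreated columns. Each processed column matched 1 scan over 21983 probes, and scans were linked through it because 14 of 16 are recorded under another sample. Such processing leaves levels comparable between arrays for 1 probe, not between probes.

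The processed log2 values were the main values. A probe was tested if the scanner software flagged it as well above background throughout 1 or more of the fitted groups. Of the 41153 probes, 27459 (66.7%) were named through a mouse gene symbol. limma 3.58.1 in R 4.3.3 (lmFit, eBayes) was fitted over all tested probes, with Benjamini-Hochberg adjustment, on the 10 untreated and CPZ arrays (27501 probes) and, for regular diet, on all 16 (27781 probes). A gene was given by its brightest tested probe, which also names it in the lists. Partner-to-Trem2 differences were tested by exact two-sided permutation. The named genes were the 5 members, per list the up to 3 genes with the smallest p at 4 weeks plus any called, and the 5 genes most like Trem2 and Tyrobp by Pearson r, of which 1 is not reported here. Marker genes named singly were chosen after their values were seen. A level not well above background in a whole group was given as a lower bound on the fold, from the lowest signal among probes well above background on each array. The members and lists were chosen with earlier results of these data known. Array number limits the precision. The fitting script was tested on simulated data. Promoter letters came from the RefSeq table (GRCm38.p6). Figures used matplotlib 3.10.9 and Python 3.11.15. Alternatives were scanner signals, other background corrections, scalings and filters, slide or replicate blocks, array weights, other sample sets, the methods' test and leaving out arrays.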

Additional observations from a re-analysis of the deposited data

How the results depend on the processing

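Under most alternatives the count of called members stayed at 0 of 5. The exception at 2 weeks was limma array weights (4 called, beside 7.85% of all genes). At 4 weeks they were normexp on the median signal (1, beside 0.231% of all genes), slide as a fixed block (3, 2.4%), slide as a random block (2, 1.95%), array weights (3, 6.36%), only the 2 groups compared (1, 1.0%) and leaving out 1 array at a time (0 to 2, with 2 called without 4-week replicate 2, 0.899%). On regular diet against untreated they were array weights (4, 4.77%) and leaving out regular-diet arrays 1 and 2 (1, 0.973%). Array-weight estimation stopped before convergence in 2 fits, so those counts are less sure. Of the 12 partner-to-Trem2 tests, quantile normalization passed 3 against 0. The cause was not tested. Signs turned for Syk with normexp at 2 weeks (-0.19) and 4 weeks (-0.018). They turned at 4 against 2 weeks with scanner files as recorded (Tyrobp -0.32, Trem2 -0.39, Plcg2 -0.066, the other Trem2 probe -0.36), and for Inpp5d with array weights (-0.12) and leaving out 1 array (-0.0056 to 0.33). On regular diet against 4 weeks they turned for Tyrobp (-0.27), Trem2 (-0.47), Inpp5d (-0.086), Plcg2 (-0.057) and the other Trem2 probe (-0.24) without regular-diet arrays 1 and 2, and for Syk with files as recorded (-0.022). The Tyrobp-to-Trem2 change at 4 weeks ranged from -0.071 to 0.13 when 1 array was left out.

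The replicate numbers do not pair the arrays, since same-numbered arrays correlated at -0.834 to 0.207; with a replicate block 0 members were called in each comparison, as were 0 of all genes in 4 of the 5 and 17 (0.122%) on regular diet against untreated, with Trem2 at 2.42 at 4 weeks (adjusted p = 0.203, limma) and Tyrobp at 4.08 on regular diet against untreated (adjusted p = 0.079). Median scaling moved the all-gene median by -0.17, 0.12, 0.28, -0.18 and -0.30 at 2 weeks, 4 weeks, 4 against 2 weeks, regular diet against untreated and regular diet against 4 weeks; no member's sign turned under it. Normexp on the mean signal was not run, because the files used here hold the median signal.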
